A study of Homo sapiens with 46 samples.

Results

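The response of a Lamin B2 degron line to 96 h of auxin was compared here with that of the untagged parental line. The change of the untagged cells over the same time is thereby subtracted. Whether the degron line responds to auxin itself as the parental line does was not tested. DLD-1 is an established human colorectal adenocarcinoma line that grows attached. The comparison was defined by its 4 groups and not by any measured value, and it used 15 of the 46 libraries of the study: the parental line at 0 h (n = 4) and after 96 h of auxin (n = 4), and the line whose endogenous Lamin B2 carries an auxin-inducible degron, called LB2 here, at 0 h (n = 4) and after 96 h (n = 3). Auxin was given at 1 mM from a stock in DMSO, and whether the wells at 0 h were given the solvent is not stated in the labels. The degron is N-terminal on the product of the endogenous gene, and the labels do not say whether the LB2 line is 1 clone. Each replicate is a separate well, so the p-values measure the spread between wells, which may be technical. The labels give no measurement of Lamin B2 protein, and none was analysed here.

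Lamins are intermediate filament proteins that form a meshwork under the inner nuclear membrane, where they anchor chromatin, nuclear pores and the complexes that couple the nucleus to the cytoskeleton. Lamin B2, encoded by LMNB2, is a B-type lamin, a kind that stays attached to the membrane through a farnesyl group. In the degron system, auxin brings the tagged protein to a ubiquitin ligase, and the proteasome then degrades it, while the messenger RNA is not a target. Auxin itself, an indole compound, can alter transcription in mammalian cells whether or not a lamin is tagged, and the untagged cells were treated to list the genes that respond to it.

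For each gene, the change from 0 to 96 h in the parental line was subtracted from the change in the LB2 line, and the log2 value of this double difference is called the difference below. A positive difference can come from a rise in LB2, from a fall in the parental line, or from both. Both changes, or the levels in the 4 groups, are given below for many genes but not for all those named. A difference given alone does not say which line moved. Of 21484 genes tested, 79 (0.368%) had a difference at an adjusted p under 0.05 by the quasi-likelihood test of edgeR. The difference was positive for 58 of them (0.27% of genes tested) and negative for 21 (0.0977%), and it was at least 2-fold for 47 and 10 of these. By unadjusted p, 2726 genes were under 0.05. With 1 library left out in turn, between 2 and 72 genes were called. Only 2 were called without replicate 2 of the parental line at 96 h, and only 2 without replicate 2 of LB2 at 0 h. Both times these were DGKA and ENSG00000279698.1, a transcript inside SEMA5A. The count was 6 without replicate 1 of LB2 at 96 h. No gene of the 79 changed sign in the alternatives in which it was tested, which were 28 of the 29 tried for 2 genes, 25 for 2 others and 29 for the rest. The split between positive and negative depended on the setting. It was 59 and 69 without the libraries under 5000000 counts, 80 and 84 without the low-count filter, 280 and 276 with voom and sample weights, and 155 and 145 with the compared groups alone and without replicate 1 of LB2 at 0 h. It was 71 and 14 with RLE scaling and 156 and 13 with scaling by library size alone, which moved the median difference of all genes from 0.01 to 0.07 and 0.17.

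Over the 15 libraries, the totals ran from 1894447 to 17989328 counts with a median of 10167202, and 3 libraries held under 5000000. Replicate 1 of LB2 at 0 h was the least deep and stood apart. Over 9737 genes, its log2 deviation from the mean of its group, itself included, had an SD of 0.569. The other 14 libraries had at most 0.255. The deviation of this replicate followed GC content (Spearman rho 0.7 across genes). At the 173 genes that best separated the lines at 0 h, it was nearer to the other LB2 libraries at 71.1%. Replicate 2 of the parental line at 96 h also deviated with GC content (rho 0.68). The difference itself was correlated with GC content across 9564 genes (rho -0.21), and removing the trend with GC content and length left rho at 0.09 and called 376 genes (1.75%), 240 higher (1.12%) and 136 lower (0.633%). The part of GC content in single results was not tested beyond this. Without replicate 1 of LB2 at 0 h, 38 genes were called, 32 of them among the 79. Of the genes described below, ANKRD1, CCN1, ATF3, OGN, MAPK10, HEPHL1, MARCHF3, MFSD5, TMEM19, ACKR2, ACSS2, ODC1, IQGAP2, RNU5B-1, RNVU1-25, SH3PXD2A-AS1, DIP2C-AS1, HIF1A-AS3, VEZTP1 and ANKRD36B then missed the threshold, with adjusted p from 0.0508 (ATF3) to 0.0856 (ACKR2) by edgeR. SEMA5A (adjusted p = 0.0702) and Metazoa_SRP (adjusted p = 0.0829) then missed it too (edgeR). Without replicate 2 of the parental line at 96 h, every gene described below other than DGKA and ENSG00000279698.1 missed it, with adjusted p from 0.0519 (TGM2) upwards, among them CCN2 (0.056), IL33, BHLHE40, NEAT1 and CDKN1A (0.0728 each).

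Of 11 colorectal epithelial markers, the general epithelial ones were high and several intestinal ones were near 0. KRT8 was at 3471 to 6499 CPM (normalised read counts, scaled to a common library size) in the 15 libraries, KRT18 at 1294 to 1951 and EPCAM at 404 to 516, and the 11 markers summed to between 6985 and 10866 CPM. KRT20, of differentiated colonic cells, was lower, at 29.6 to 86.1 CPM, and CDX2, the intestinal homeobox factor, was at 61.2 to 237. CDX1 was at most 0.408 CPM, VIL1 at most 3.12, LGALS4 at most 1.71 and CEACAM5 at most 2.69, so the keratins and CDH1 made up most of the sum. Markers of other cells summed to at most 5.81 CPM for fibroblasts, with COL1A2 and DCN at 0 in every library, and to at most 0.895 CPM for leukocytes. Endothelial markers summed to 4.42 to 14.3 CPM, nearly all of it VWF, and KDR was at 0. Neural markers summed to 18.8 to 71.9 CPM, most of it MAP2, and were higher in the parental libraries (39.6 to 71.9) than in those of LB2 (18.8 to 28.5).

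The tagged gene came first. LMNB2 (ENSG00000176619.13, chr19:2427638-2456959, minus strand) was at 292, 297, 307 and 235 CPM in the parental line at 0 h, 365, 475, 404 and 413 there at 96 h, 261, 109, 99.9 and 100 in LB2 at 0 h and 142, 198 and 177 at 96 h. The transcript was lower in the LB2 line than in the parental line at both times, apart from replicate 1 of LB2 at 0 h, which stood at 261 CPM against 99.9 to 109 in the other 3. Its difference was -0.24 ± 0.31 (SE; adjusted p = 0.779, edgeR), and 0.16 without that replicate, so neither its size nor its sign was settled. LMNA and LMNB1, which encode Lamin A/C and Lamin B1, had differences of -0.49 ± 0.38 and -0.06 ± 0.22 and also missed the threshold (adjusted p = 0.605 and 0.945, edgeR); without that replicate their signs turned too, to 0.0721 and 0.20. A transcript level says nothing here of how much Lamin B2 protein was left.

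The genes were sorted by the line in which the change from 0 h passed the test on its own. Of the 79, 42 were called in the parental line alone: 39 with a positive difference, all of which had fallen in parental cells, and 3 with a negative one, all of which had risen there. A further 25 were called in LB2 alone, 12 that rose and 13 that fell. In 4 the lines were called in opposite directions, in 2 (CCN1 and ANKRD1) in the same direction, and in 6 neither change passed on its own. Passing in 1 line does not show that the other stood still: of the 39, 35 had a change above 0 in LB2, which for MARCHF3 was 0.86 (adjusted p = 0.0742, edgeR) against -0.89 in parental cells. The LB2 arm alone had 762 called genes (3.55% of those tested; 419 or 1.95% higher and 343 or 1.6% lower) and the parental arm 1671 (7.78%; 847 or 3.94% higher and 824 or 3.84% lower). The 2 arms share no library: of the 847 genes that rose in parental cells, 189 (22.3%) also rose in LB2, which is 45.1% of the 419 there, and of the 824 that fell, 104 (12.6%) also fell in LB2, which is 30.3% of the 343. Of the 824, 44 were called in the difference. The count for LB2, on which these classes rest, was 54 in the fit to the compared groups alone and 336 without replicate 3 of LB2 at 96 h. In bulk libraries, fewer cells with a transcript and less of it per cell cannot be told apart.

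**Figure D1:**
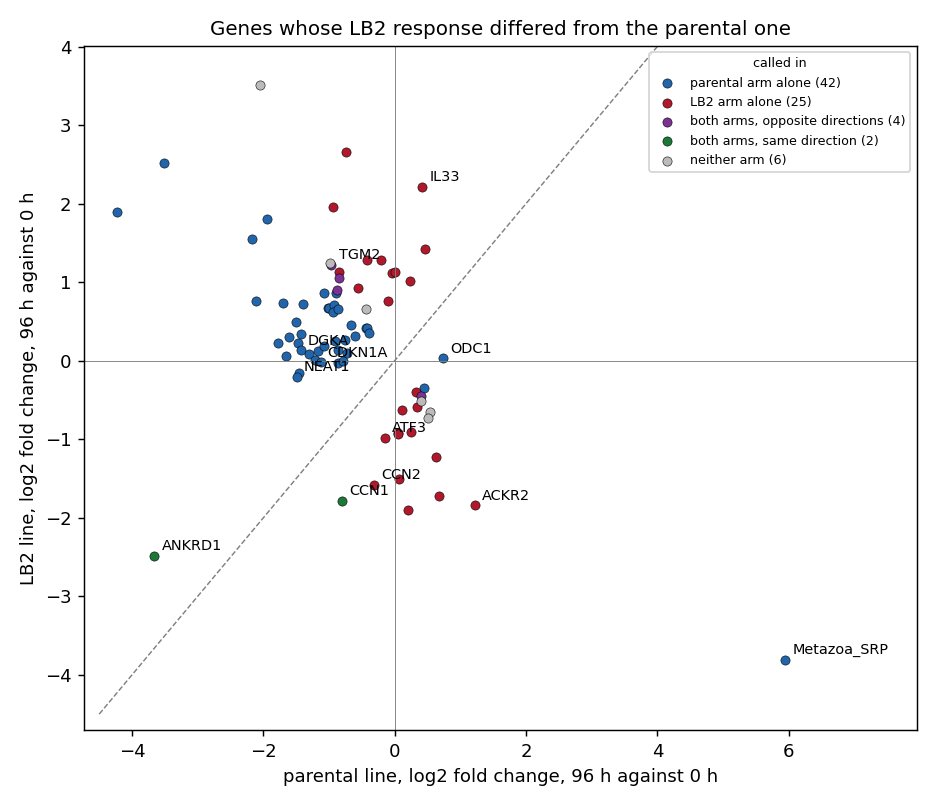
Log2 fold change at 96 h in the parental line (x axis) against that in the LB2 line (y axis) for the 79 called genes, coloured by the arm in which each was called (numbers in the legend); the dashed line marks equal change. Most points lie at negative x and near or above 0 on y, CCN1, CCN2 and ATF3 lie below the line, and ANKRD1 fell on both axes. In 4 genes, Metazoa_SRP among them, at least 1 group held 3 counts or fewer in all its libraries together, and the fitted values of those points depend on the prior count.

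CCN1, CCN2 and ANKRD1 were the members called from a list of 26 known targets of YAP and TAZ, the coactivators that respond to the cytoskeleton and to the tension on a cell. YAP and TAZ bind DNA through TEAD factors, whose core site reads GGAATG. CCN2 and CCN1 encode matricellular proteins that are secreted and bind integrins, and ANKRD1 encodes an ankyrin repeat protein of muscle and stressed cells. The 250 bases before the start of CCN2 and ANKRD1 in the RefSeq table (GRCh38.p14), shown because the 3 best known targets of this pathway moved, hold the core in capitals, read 5′ to 3′ along the gene:
CCN2 (chr6:131951373-131951622, minus strand): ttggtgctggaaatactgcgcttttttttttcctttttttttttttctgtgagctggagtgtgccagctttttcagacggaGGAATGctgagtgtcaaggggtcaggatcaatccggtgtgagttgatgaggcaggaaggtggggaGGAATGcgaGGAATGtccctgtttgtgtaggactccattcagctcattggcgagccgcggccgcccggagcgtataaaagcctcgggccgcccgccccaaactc
ANKRD1 (chr10:90921088-90921337, minus strand): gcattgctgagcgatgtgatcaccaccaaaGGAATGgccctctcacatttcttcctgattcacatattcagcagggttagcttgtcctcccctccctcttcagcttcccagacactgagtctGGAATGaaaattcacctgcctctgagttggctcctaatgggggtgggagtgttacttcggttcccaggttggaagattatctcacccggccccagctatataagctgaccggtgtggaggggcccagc
CCN2 has 3 copies, whose first bases lie 169, 104 and 95 bases before the start, and ANKRD1 has 2, at 220 and 128. Searching GGAATG on both strands, with overlaps counted, found at least 1 copy in 14% of the 35116 promoters of 300 bases in the table, 2 or more in 1.37% and 3 or more in 0.128%; of the 41 called genes with an entry, 6 held it. CCN1 has no entry under that name in the RefSeq set used, so its promoter was not searched. A match is a string of letters, and binding was not measured.

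CCN2 (ENSG00000118523.6, chr6:131948176-131951372, minus strand) was at 34.6, 34.2, 35.0 and 29.0 CPM in the parental line at 0 h, 29.9, 27.2, 23.7 and 25.8 there at 96 h, 26.1, 31.1, 29.8 and 21.7 in LB2 at 0 h and 6.7, 10.8 and 9.94 at 96 h. The 3 LB2 libraries at 96 h lay below all 12 others. The change was -1.58 ± 0.19 in LB2 (log2, SE of the fit; adjusted p = 2.19e-07, edgeR) and -0.32 ± 0.16 in parental cells (adjusted p = 0.242, edgeR). The difference was -1.26 ± 0.25 (adjusted p = 0.0179, edgeR) and was called in 26 of 29 alternatives. CCN1 (ENSG00000142871.18, chr1:85580761-85584589, plus strand) was at 190, 185, 188 and 145 CPM in the parental line at 0 h, 93.8, 104, 110 and 98.6 there at 96 h, 253, 249, 183 and 203 in LB2 at 0 h and 47.7, 74.9 and 69.9 at 96 h. It fell in both lines, with changes of -0.81 ± 0.16 in parental cells and -1.78 ± 0.18 in LB2, and the 3 LB2 libraries at 96 h were again the lowest of the 15. The difference of -0.98 ± 0.24 passed narrowly (adjusted p = 0.0494, edgeR) and was called in 11 of 29 alternatives. Without replicate 1 of LB2 at 0 h it was -0.94 (adjusted p = 0.0634), while that of CCN2 was -1.31 (adjusted p = 0.022). Without replicate 2 of the parental line at 96 h neither passed (adjusted p = 0.056 for CCN2 and 0.104 for CCN1, edgeR).

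ANKRD1 (ENSG00000148677.7, chr10:90912096-90921087, minus strand) went the other way on the difference while falling in both lines. It was at 117, 96.1, 85.9 and 96.7 CPM in the parental line at 0 h, 7.27, 7.58, 10.3 and 6.71 there at 96 h, 30.5, 33.4, 36.2 and 48.9 in LB2 at 0 h and 7.23, 7.09 and 5.85 at 96 h. The changes were -3.66 ± 0.19 in parental cells and -2.48 ± 0.21 in LB2. The lines stood apart at 0 h (log2 -1.41, LB2 against parental) and overlapped at 96 h. The difference was 1.18 ± 0.27 (adjusted p = 0.041, edgeR) and was called in 16 of 29 alternatives. In the same contrast at 16 h, ANKRD1 had 1.43 (adjusted p = 0.0232, edgeR) and was the only gene called (0.00465% of those tested); the contrasts at both times share the 8 libraries at 0 h, so the value at 16 h is no independent support. At 96 h the difference was 1.08 without replicate 1 of LB2 at 0 h (adjusted p = 0.0622, edgeR). Of the 24 tested members of the list, 1 was called with a positive and 2 with a negative difference (0.27% and 0.0977% of all genes tested). The median difference was 0.01, as it was over all genes tested. In the LB2 arm 6 members fell and 0 rose, where 1.6% of all genes tested fell and 1.95% rose. In the parental arm 5 fell and 2 rose, where 3.84% of all genes fell and 3.94% rose. The list was chosen with earlier results of these data known, so these counts are a description and no test. AJUBA, a LIM protein of adherens junctions, fell by 1.03 on the log2 scale in LB2 (adjusted p = 0.00249, edgeR) and had -0.37 in parental cells. AJUBA, and FOS, SUN2, SYNE2, CADPS and IQGAP2 further on, were named after their values were seen.

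**Figure D2:**
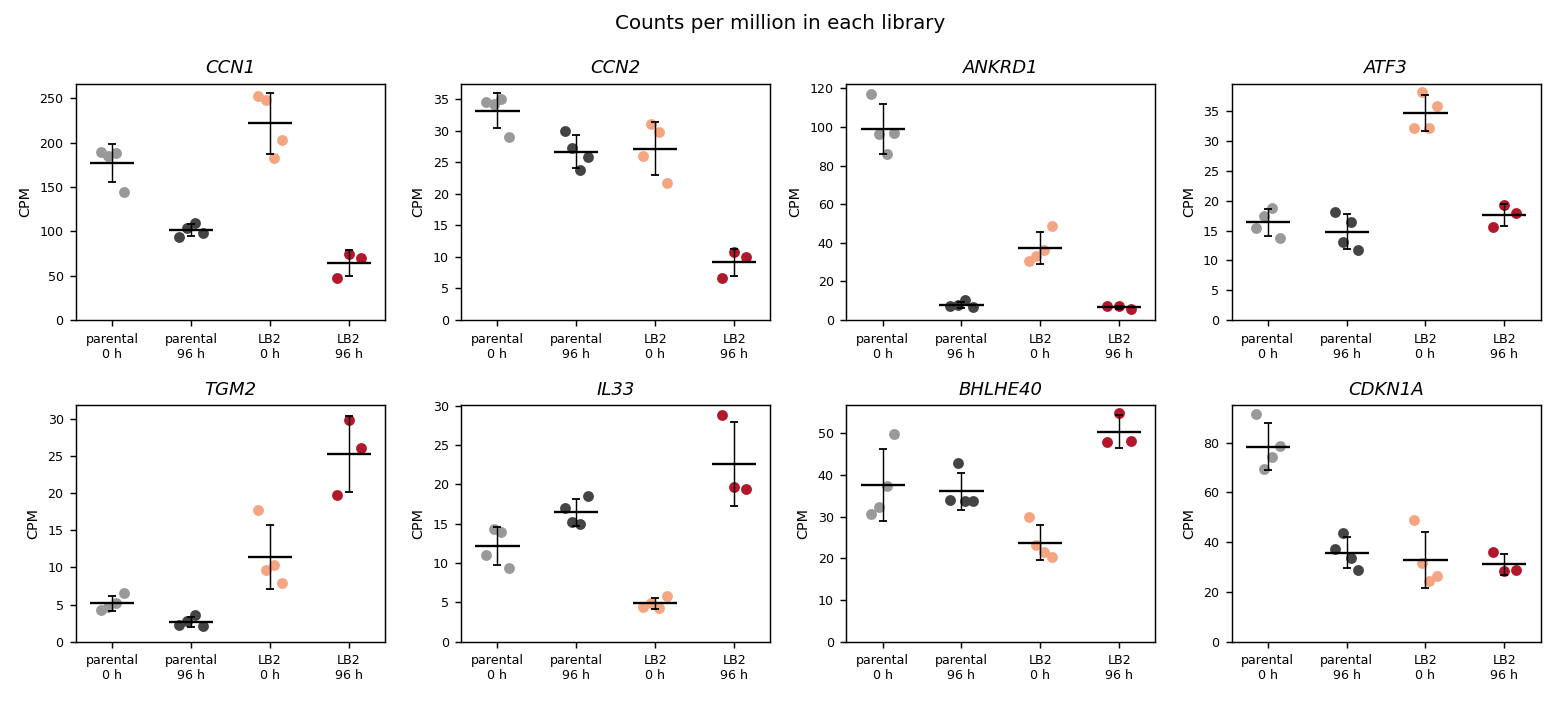
CPM of 8 called genes in each library, by group (points are wells; horizontal bars are means and error bars SDs, n = 4, 4, 4 and 3). CCN1 and CCN2 are lowest in LB2 at 96 h, ATF3 is highest in LB2 at 0 h, IL33, TGM2 and BHLHE40 are highest in LB2 at 96 h, and ANKRD1 and CDKN1A are highest in parental cells at 0 h.

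TGM2, IL33 and BHLHE40 rose in LB2 cells after auxin. TGM2 (ENSG00000198959.12, chr20:38127385-38166578, minus strand), a transglutaminase that cross-links matrix proteins, was at 4.26, 4.7, 5.2 and 6.52 CPM in the parental line at 0 h, 2.21, 2.79, 3.57 and 2.11 there at 96 h, 17.7, 9.71, 10.4 and 7.9 in LB2 at 0 h and 19.8, 29.9 and 26.2 at 96 h. Every LB2 library at 96 h exceeded every other library, and the groups at 0 h did not overlap either: LB2 was higher than parental by 1.09. TGM2 rose by 1.22 ± 0.28 in LB2 and fell by 0.96 on the log2 scale in parental cells, and the difference of 2.19 ± 0.42 (adjusted p = 0.0179, edgeR) was called in 27 of 29 alternatives. IL33 (ENSG00000137033.12, chr9:6215786-6257983, plus strand), an alarmin cytokine held in the nucleus by chromatin, was at 11.0, 14.4, 14.0 and 9.42 CPM in the parental line at 0 h, 17.0, 15.2, 15.0 and 18.6 there at 96 h, 4.44, 4.95, 4.23 and 5.86 in LB2 at 0 h and 28.8, 19.7 and 19.3 at 96 h. It was the lowest of the 4 groups in LB2 at 0 h and the highest in LB2 at 96 h, with a rise of 2.22 ± 0.29 in LB2 against 0.42 ± 0.25 in parental cells (difference 1.80 ± 0.39, adjusted p = 0.025, edgeR). BHLHE40 (ENSG00000134107.5, chr3:4979437-4985323, plus strand), a repressor of the circadian clock, was at 30.7, 32.3, 37.3 and 49.8 CPM in the parental line at 0 h, 34.0, 42.8, 33.7 and 33.6 there at 96 h, 29.9, 23.2, 21.5 and 20.4 in LB2 at 0 h and 48.0, 54.9 and 48.2 at 96 h. At each time the lines did not overlap, LB2 being the lower at 0 h and the higher at 96 h, and the difference was 1.16 ± 0.25 (adjusted p = 0.0266, edgeR). Without replicate 2 of the parental line at 96 h the adjusted p was 0.0519 for TGM2 and 0.0728 for IL33 and BHLHE40 (edgeR).

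In the lists that these genes belong to, no other member was called. Of 18 tested cytokines and chemokines of the NF-kB pathway, IL33 was the only one called, and of 16 clock genes BHLHE40 was the only one. Over all genes tested, 0.368% were called. OGN, which encodes a small leucine-rich proteoglycan of the matrix, had a difference of 1.98 ± 0.45, with 5.59 ± 1.12 CPM (mean ± SD) in the parental line at 0 h and 2.96 ± 1.11 at 96 h, and 3.22 ± 0.802 in LB2 at 0 h and 7.35 ± 2.9 at 96 h; MAPK10, which encodes the kinase JNK3, had 1.70 ± 0.42, with 13.4 ± 3.63 CPM (mean ± SD) in the parental line at 0 h and 9.76 ± 2.74 at 96 h, and 4.59 ± 1.92 in LB2 at 0 h and 12.3 ± 3.9 at 96 h. ST3GAL3, a sialyltransferase, rose by 1.05 ± 0.30 in LB2 and fell by 0.85 on the log2 scale in parental cells, for a difference of 1.90 ± 0.41. HEPHL1, a ferroxidase, and MARCHF3, a membrane ubiquitin ligase, had differences of 2.22 ± 0.54 and 1.75 ± 0.39. Without replicate 1 of LB2 at 0 h the adjusted p was 0.0519 for OGN and MARCHF3, 0.0832 for MAPK10 and 0.0733 for HEPHL1 (edgeR). HEPHL1 was called in neither arm alone, and MARCHF3 only in the parental one, where it fell.

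ATF3, ACKR2, SLC17A5 and TMEM19 fell in LB2 and did not pass in parental cells. ATF3 (ENSG00000162772.17, chr1:212565334-212620777, plus strand), a stress-induced bZIP transcription factor, was at 15.4, 17.5, 18.8 and 13.8 CPM in the parental line at 0 h, 18.1, 13.1, 16.4 and 11.7 there at 96 h, 32.2, 38.3, 32.1 and 35.9 in LB2 at 0 h and 15.6, 19.3 and 18.0 at 96 h. At 0 h the 4 LB2 libraries exceeded all parental ones, and at 96 h the 2 lines overlapped, with a change of -0.98 ± 0.15 in LB2. The difference was -0.83 ± 0.20 (adjusted p = 0.0494, edgeR), and it was called in 8 of 29 alternatives, not without replicate 1 of LB2 at 0 h (adjusted p = 0.0508, edgeR). It was the only one called of 24 immediate early genes, against 0.368% of all genes tested. Among these 24, FOS rose by 1.64 in parental cells and by 0.69 in LB2 without a called difference (-0.94, adjusted p = 0.0796, edgeR). SLC17A5, the lysosomal sialic acid exporter, had a difference of -0.93 ± 0.20, TMEM19, a membrane protein, -0.97 ± 0.22, and MFSD5, a transporter of the major facilitator family that passed in neither arm alone, -1.19 ± 0.28. ACKR2, a decoy receptor for chemokines, had the largest negative value among the genes named here by rule, -3.05 ± 0.72, at low levels: 0.464 ± 0.462 CPM (mean ± SD) in the parental line at 0 h and 1.31 ± 0.388 at 96 h, and 3.37 ± 2.93 in LB2 at 0 h and 0.803 ± 0.337 at 96 h. Replicate 1 of LB2 at 0 h had 7.76 CPM and the other 3 had 1.84 to 2.04, and without that replicate the difference was -2.53 (adjusted p = 0.0856, edgeR).

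RPLP0 and RPS12, both proteins of the cytosolic ribosome, were the called members of 38 ribosomal protein genes, of which 32 had a negative difference and 6 a positive one. Over all protein-coding genes tested, 42.0% were above 0, and 0.0977% of all genes tested were called with a negative difference. RPLP0 (ENSG00000089157.16, chr12:120196699-120201235, minus strand), the acidic stalk protein, was at 2437, 2117, 2340 and 2260 CPM in the parental line at 0 h, 2430, 2872, 2444 and 2105 there at 96 h, 2313, 3024, 2577 and 2657 in LB2 at 0 h and 1738, 1713 and 1680 at 96 h. The LB2 libraries at 96 h, at 1680 to 1738 CPM, were the lowest of all 15, and the difference was -0.73 ± 0.17 (adjusted p = 0.0378, edgeR). Its processed pseudogene RPLP0P6 had a difference of -1.15 ± 0.24; because how the authors counted reads that map to several places is not given in the sources used here, the 2 cannot be separated with certainty. RPS12 had -0.92 ± 0.23 (adjusted p = 0.0494). RPS2 and RPSA, which with RPLP0 are the 3 members of highest CPM, had -0.46 ± 0.17 and -0.92 ± 0.31 and were not called, although RPSA fell in LB2 by 0.94 on the log2 scale (adjusted p = 0.0121, edgeR). The median difference of the list was -0.37 and that of all genes tested was 0.01; it was -0.20 with scaling by library size alone, where no member was called lower, and with RLE scaling 1 was. RPLP0 was called in 15 of 29 alternatives and RPS12 in 14. Both were called without replicate 1 of LB2 at 0 h, and neither was without replicate 2 of the parental line at 96 h. Of 19 genes of the endoplasmic reticulum's unfolded protein response, 18 had a negative difference (median -0.35, and -0.21 by library size alone) and none was called; HSPA5, the chaperone BiP, had -0.58 ± 0.20, CANX, the chaperone calnexin, -0.27 ± 0.21, and CALR -0.79 ± 0.23. Of 23 partners of the lamina and the inner nuclear membrane, 20 were negative (median -0.28, and -0.11 by library size alone). LBR had -0.34 ± 0.22, TMPO -0.54 ± 0.22 and TOR1AIP2 -0.29 ± 0.17, and no member was called. The tilt was not particular to these partners. Of 50 nuclear-encoded genes of the respiratory chain, 44 were negative (median -0.28), as were 34 of 39 replication-dependent histone genes (median -0.47), again with no member called. SUN2, of the complex that links the nucleus to the cytoskeleton, fell in LB2 by 0.83 on the log2 scale (adjusted p = 0.0269, edgeR) and did not pass in the difference (-0.70, adjusted p = 0.322). SYNE2, a nesprin of the same complex, had a difference of 0.98 (adjusted p = 0.0574, edgeR).

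**Figure D3:**
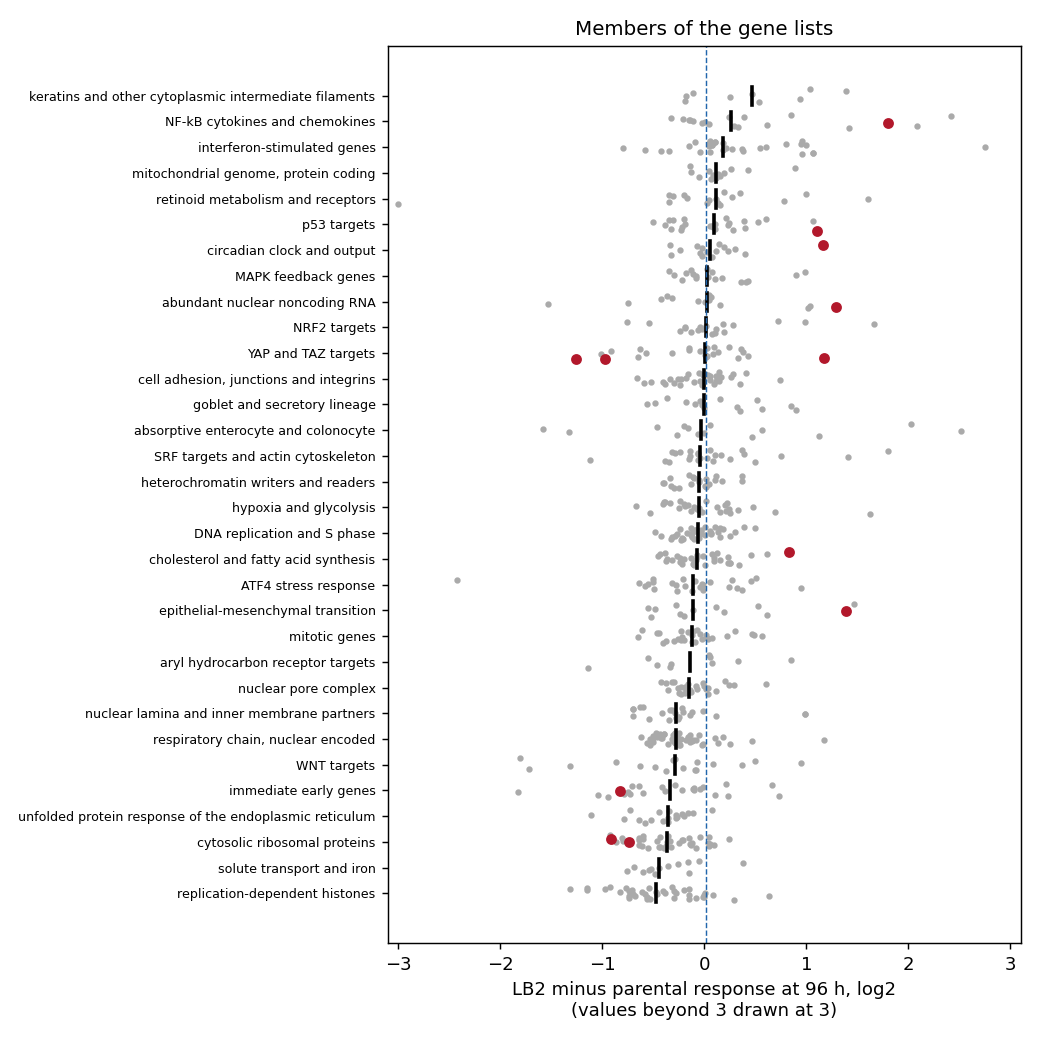
Difference (x axis, log2) of each tested member of 32 gene lists (rows, ordered by median); red points passed the test, grey ones did not, black bars are medians and the dashed line is the median over all genes tested (0.01). The called members are 12 genes. The medians of the ribosomal, unfolded protein response and histone lists lie below 0, with 2, 0 and 0 called members. Those of the other lists run from -0.45 (solute transport and iron) to 0.47 (keratins and other cytoplasmic intermediate filaments). The median of all protein-coding genes tested was -0.08.

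In the largest group, the 39 genes called in parental cells alone with a positive difference, the transcript fell in parental cells and no change passed in LB2. DGKA (ENSG00000065357.20, chr12:55927319-55954027, plus strand), a diacylglycerol kinase that ends signalling by its lipid substrate, was at 12.4, 11.9, 10.9 and 12.6 CPM in the parental line at 0 h, 3.27, 5.39, 4.1 and 4.96 there at 96 h, 6.1, 10.8, 10.4 and 7.9 in LB2 at 0 h and 10.3, 8.58 and 11.8 at 96 h. All 4 parental libraries at 96 h lay under all other libraries, LB2 changed by 0.14 ± 0.21 (adjusted p = 0.9, edgeR) and parental cells fell by 1.43 on the log2 scale. The difference was 1.56 ± 0.30 (adjusted p = 0.0179, edgeR), and DGKA was called in all 29 alternatives, as ENSG00000279698.1 was in all 28 in which it was tested. It overlaps PYM1 on the other strand. CDKN1A (ENSG00000124762.14, chr6:36676460-36687337, plus strand), the p21 inhibitor of cyclin-dependent kinases, was at 91.5, 69.5, 74.3 and 78.5 CPM in the parental line at 0 h, 37.2, 43.6, 33.7 and 28.8 there at 96 h, 48.8, 31.8, 24.5 and 26.2 in LB2 at 0 h and 36.0, 28.6 and 28.8 at 96 h. The parental libraries at 0 h lay above all others, and the other 3 groups overlapped. The difference was 1.11 ± 0.26 (adjusted p = 0.0436, edgeR). It was the only one called of 24 targets of p53, against 0.368% of all genes tested. ACSS2, which makes acetyl-CoA from acetate, had 77.4 ± 17.5 CPM (mean ± SD) in the parental line at 0 h and 42.5 ± 5.39 at 96 h, and 46.5 ± 5.64 in LB2 at 0 h and 45.4 ± 2.62 at 96 h and a difference of 0.83 ± 0.20. For ACSS2 too, the LB2 libraries at 0 h overlapped the parental ones at 96 h.

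Of the 3 genes with a negative difference that passed in parental cells alone, ODC1, the first enzyme of polyamine synthesis and named after its value was seen, rose there by 0.73 ± 0.11 and had 0.03 ± 0.12 in LB2 (difference -0.71 ± 0.16, adjusted p = 0.0378, edgeR).

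Many of the called genes already differed between the lines before auxin. Of the 58 genes with a positive difference, 30 were lower in LB2 than in the parental line at 0 h and 1, TGM2, was higher. Of the 21 with a negative difference, 10 were higher in LB2 at 0 h and 0 were lower. The difference between lines at 0 h uses the same 0 h libraries as the response, with the opposite sign, so these counts are a description and no independent test. At 96 h, 42 of the 79 differed between the lines, and 28 of the 58 with a positive difference did not. Between lines at 0 h, 1763 of the 21484 genes (8.21%) were called, and 1533 (7.14%) at 96 h.

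Of the 39 genes called in parental cells alone with a positive difference, 18 (46.2%) were typed as long noncoding RNA, antisense transcripts included, against 20.0% of all genes tested. Since the 39 had all fallen in parental cells, the nearer comparison is the 824 genes that fell there, of which 224 (27.2%) were. It is not matched for the size of the fall. Among the 824, the median parental change was -1.46 for long noncoding RNAs and -0.71 for protein-coding genes. Whether the shares differ at falls of like size was not tested. NEAT1 (ENSG00000245532.11, chr11:65422774-65445540, plus strand), the architectural RNA of paraspeckles, was at 852, 635, 729 and 942 CPM in the parental line at 0 h, 287, 208, 310 and 318 there at 96 h, 461, 478, 639 and 656 in LB2 at 0 h and 616, 423 and 414 at 96 h. Parental cells at 96 h were below every other library, and LB2 at 96 h overlapped LB2 at 0 h (parental -1.49 ± 0.17, LB2 -0.21 ± 0.18; difference 1.29 ± 0.24, adjusted p = 0.0179, edgeR). Its GC and length corrected value was 1.05 (adjusted p = 0.00975, edgeR), and without replicate 2 of the parental line at 96 h it was 1.14 (adjusted p = 0.0728, edgeR). SEMA5A-AS1, which lies opposite SEMA5A, had 5.93 ± 1.05 CPM (mean ± SD) in the parental line at 0 h and 1.81 ± 0.672 at 96 h, and 2.24 ± 1.00 in LB2 at 0 h and 3.99 ± 0.95 at 96 h and a difference of 2.44 ± 0.52. HIF1A-AS3, opposite HIF1A, had 1.69 ± 0.38, and BMS1P1, a duplicated pseudogene, 1.69 ± 0.34. The 15 largest also held SH3PXD2A-AS1, which was called in LB2 alone (3.39 ± 0.80), DIP2C-AS1 (2.00 ± 0.47), VEZTP1 (3.73 ± 0.86) and ANKRD36B (1.63 ± 0.39). DIP2C-AS1 and ANKRD36B were typed as protein-coding, VEZTP1 as a processed pseudogene, and BMS1P1 had no type, so none of these is among the 18. Another entry of the same name overlaps BMS1P1 on its strand. How strand was handled in counting is not given in the sources used here, so reads of an antisense transcript and of the gene opposite it cannot be told apart. A gene on the other strand overlaps 48 of the 79. The share over all genes tested is not given here, so whether 48 is unusual cannot be said.

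Over all genes tested, the classes of transcript differed too. For 4297 long noncoding RNAs, the median difference was 0.42, with -0.41 in the parental arm and 0.02 in LB2. Pseudogenes (1902) had a median of 0.59 and small noncoding RNAs (525) of 0.53, while 13734 protein-coding genes had -0.08. The sign for protein-coding genes depended on the scaling, -0.02 with RLE and 0.08 by library size alone; the noncoding classes stayed above 0 with both and after removal of the GC and length trend (0.54 for long noncoding RNAs). Long noncoding RNAs took 1.62% to 1.94% of all counts in the parental libraries at 0 h and 1.31% to 1.54% at 96 h, without overlap; LB2 had 1.31% to 1.63% at 0 h and 1.50% to 1.80% at 96 h. Of the long noncoding RNAs tested, 0.559% were called, against 0.368% of all genes and 0.320% of protein-coding genes, and 67.7% of the long noncoding RNAs lay above 0. Of the 58 genes with a positive difference, 22 (37.9%) were long noncoding, against 2 of the 21 (9.52%) with a negative one and 20.0% of all genes tested. In ribosome-depleted total RNA such transcripts include nuclear and intronic RNA, and the part of library quality in these medians was not tested.

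Small nuclear RNAs, the RNA cores of the spliceosome, were among the negative differences. RNVU1-22 and RNVU1-25 are variants of U1, and RNU5B-1 is a U5 RNA. RNU5B-1 was at 7.07, 5.2, 5.56 and 4.11 CPM in the parental line at 0 h, 8.58, 10.1, 7.85 and 7.81 there at 96 h, 8.32, 6.06, 4.97 and 6.11 in LB2 at 0 h and 2.3, 3.26 and 2.18 at 96 h. RNVU1-22 was at 13.5, 7.68, 7.71 and 10.2 CPM in the parental line at 0 h, 8.25, 12.0, 11.4 and 9.47 there at 96 h, 18.3, 20.3, 18.7 and 18.3 in LB2 at 0 h and 11.5, 4.25 and 4.89 at 96 h. For RNU5B-1 the 3 LB2 libraries at 96 h lay below all others, and for RNVU1-22 the 4 LB2 libraries at 0 h lay above all others. Differences were -1.85 ± 0.44, -1.57 ± 0.34 and, for RNVU1-25, -2.39 ± 0.56. Without replicate 1 of LB2 at 0 h RNU5B-1 and RNVU1-25 missed the threshold (adjusted p = 0.0572 and 0.051, edgeR). These are members of families of near-identical copies, so a read may belong to another copy. All 4 called small noncoding RNAs had a negative difference, while the class as a whole had a positive median.

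**Figure D4:**
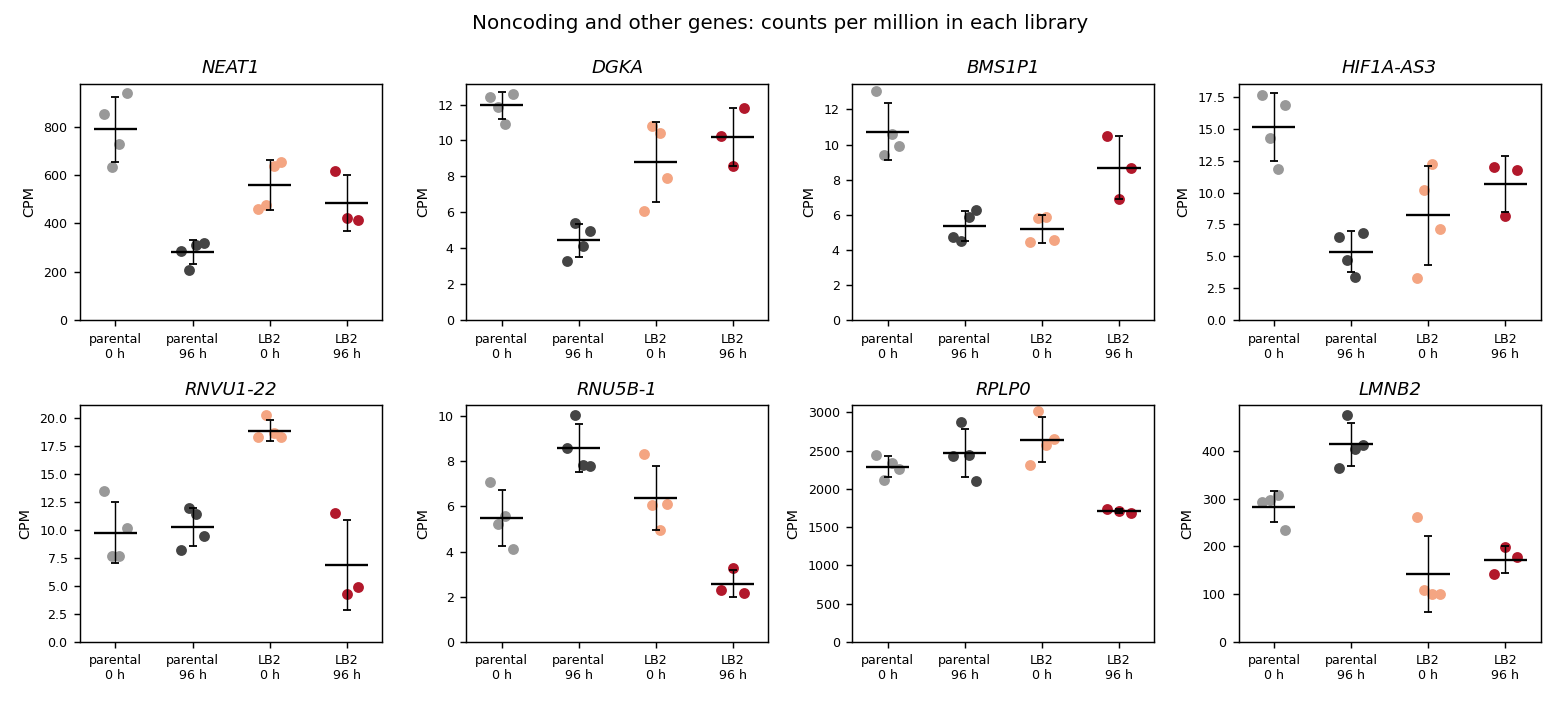
CPM in each library for 8 further genes, drawn as in the plot of CCN1 and its companions. Parental cells at 96 h are lowest for NEAT1 and DGKA; LB2 at 96 h is lowest for RNU5B-1 and RPLP0; LMNB2 is lower in LB2 than in parental cells except in 1 LB2 library at 0 h.

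The LB2 response was also set against those of the other tagged lines, LB1 (degron on Lamin B1; n = 3 at 0 h and 4 at 96 h) and LAC (Lamin A/C; n = 4 at each time). The LB2 response minus that of the LB1 line called 26 genes (0.121%), 19 higher (0.0884%) and 7 lower (0.0326%), and 3 of them were among the 79: CADPS, a priming factor for dense-core vesicles (1.87, edgeR adjusted p = 0.00175), IQGAP2, a scaffold of the actin cytoskeleton (1.84, edgeR adjusted p = 0.000126), and ENSG00000279602.2, a transcript inside LINC00910 (-1.12). CADPS was at 2.22, 6.31, 9.75 and 11.5 CPM in LB2 at 0 h and at 20.7, 14.2 and 22.8 at 96 h. IQGAP2 did not pass in the LB2 arm (0.14 ± 0.17, adjusted p = 0.765, edgeR) and fell by 0.86 on the log2 scale in parental cells. Against the Lamin A/C line, 105 genes (0.489%) were called, 69 higher (0.321%) and 36 lower (0.168%), 7 of them among the 79: TGM2 (1.92), RNU5B-1 (-2.27), RNVU1-22 (-1.53), ATF3 (-1.01), RPLP0 (-0.69) and 2 without symbols. Both contrasts use the same LB2 libraries as the difference, so genes called in common are a description and no independent support. Without replicate 1 of LB2 at 0 h, 74 genes were called against LB1 and 1087 against LAC, and the fit to the compared groups alone called 8 and 0. At an unadjusted p under 0.05 there were 1572 and 2656. The differences of the other lines from the parental one share the parental libraries with the LB2 difference and are given as values only, for some genes. TGM2 was at 2.55 in LB1 and 0.27 in LAC, against 2.19 in LB2. Its LB2 response minus that of LB1 was -0.36 and was not called. TGM2 was low in LB1, with a mean of 0.224 CPM at 0 h and 0.978 at 96 h. In LB1 and LAC, ANKRD1 was at 0.85 and 1.14, against 1.18 in LB2. DGKA was at 0.72 and 1.13, against 1.56. SEMA5A-AS1 was at 2.39 and 2.57, against 2.44. NEAT1 was at 1.57 in both LB1 and LAC, against 1.29 in LB2; CCN2 was at -0.93 and -0.98, against -1.26; CCN1 at -0.76 and -1.13, against -0.98; CDKN1A at 0.09 and 0.84, against 1.11; IL33 at 0.11 and 0.83, against 1.80.

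**Figure D5:**
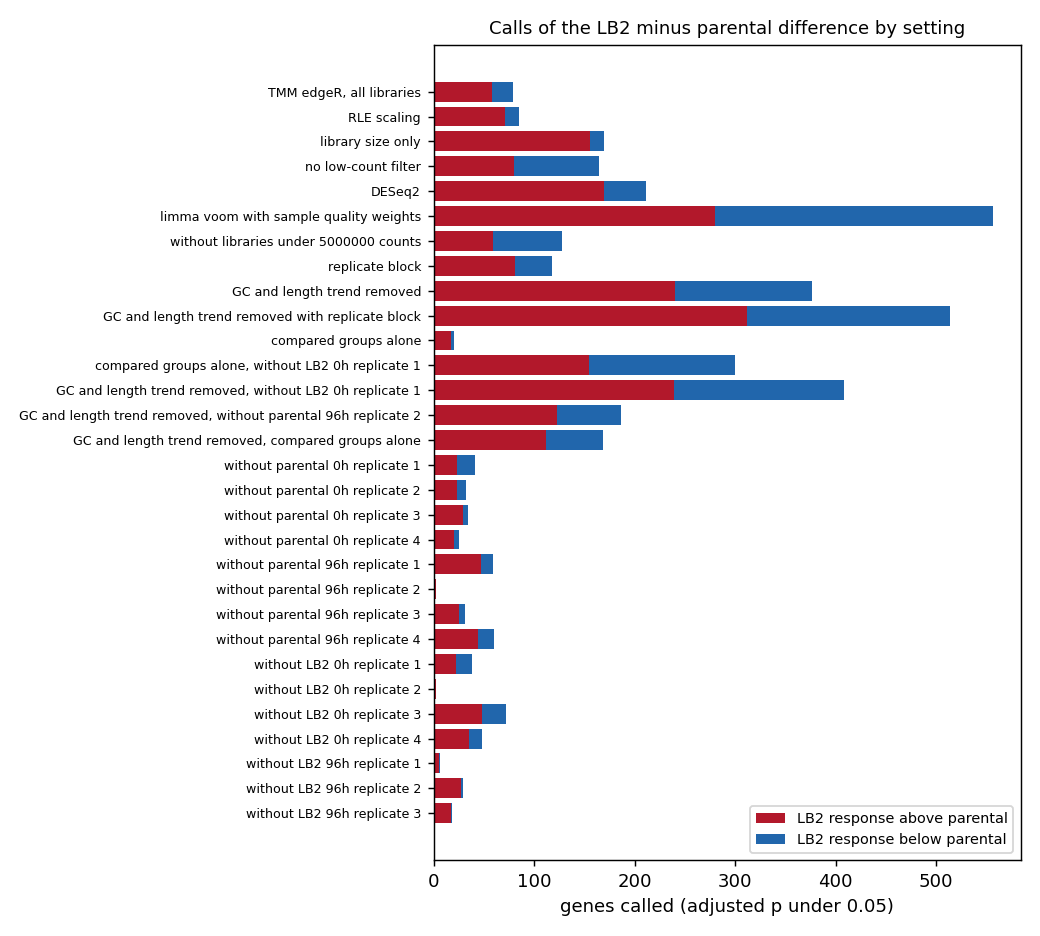
Genes called in the difference (x axis) under each setting (rows), split into positive (red) and negative (blue). Counts run from 2, without replicate 2 of the parental line at 96 h or of LB2 at 0 h, to 556 with voom and sample weights, beside 79 in the fit reported here.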

How the data were processed

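RNA-seq was deposited for 46 libraries, and 15 of them form the contrast reported here. The authors deposited raw counts per gene, made with featureCounts 1.6.4 in an nf-core/rnaseq 1.4.2 environment per the file headers, after alignment with STAR 2.7.10a to GRCh38 per the submitters' processing notes. Per the labels' protocols, ribosomal RNA was depleted from total RNA with a stranded kit. Annotation release, strand setting and treatment of reads with several matches are not given in the sources used here. Of 62756 usable genes, types, GC content and overlaps came from GENCODE release 29 (92.9% matched) and symbols from a name table (67.5%). Promoters came from RefSeq (GRCh38.p14).

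Counts were tested with the two-sided quasi-likelihood test of edgeR 4.0.16 (R 4.3.3): 1 fit of all 46 libraries, 12 groups, TMM scaling, filterByExpr, Benjamini-Hochberg adjustment over 21484 genes, threshold 0.05. CPM are TMM-scaled, except for the cell markers, which are scaled by library total. A count of 0 allows up to 3 counts. No pairing by replicate number was seen (correlation of deviations over 0.1 in 7 of 21 pairs), though the check cannot exclude one, and no block was used. No 2 replicates agreed within sampling noise (lowest chi-square per degree of freedom 3.76). The script was tested on simulated data. Named were the lamins, the 15 highest and 10 lowest called genes with a symbol and at least 1 CPM in a group, called members of the lists, the 3 most abundant members of 3 lists, and genes called in every alternative; other names are said to be chosen later. The result of 1 gene that the rule names is not reported here. Members and lists were chosen with earlier results of these data known. Alternatives were RLE and library-size scaling, no filter, DESeq2 1.42.0, limma 3.58.1 voom with weights, the compared groups alone, a replicate block, removal of libraries under 5000000 counts or of the GC and length trend, and leaving out each replicate; 4 were added after the data were seen.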

Additional observations from a re-analysis of the deposited data

Results flagged for a closer look

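The LB2 response differed from the parental response in 79 genes, from the LB1 response in 26 and from the LAC response in 105, by the test of the difference itself. Among the 79, those that also differed from LAC had log2 values of 1.92 (TGM2), -2.27 (RNU5B-1), -1.53 (RNVU1-22), -1.01 (ATF3), -0.69 (RPLP0), -1.07 (ENSG00000279602.2) and -1.82 (ENSG00000290122.1). Those that differed from LB1 had 1.87 (CADPS), 1.84 (IQGAP2) and -1.12 (ENSG00000279602.2). All these contrasts use the same LB2 libraries, so genes called in common are no independent support.

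In 13 of 111 groups of 4 wells tested for an outlying well, 1 well was far from the other 3, where chance gives about 1 in 20. Of these wells, 3 were replicate 1 of LB2 at 0 h: LMNA at 1547 CPM, LMNB2 at 261 and ACKR2 at 7.76. Replicate 2 of the parental line at 96 h had LMNA at 758 CPM, LMNB1 at 206 and BHLHE40 at 42.8. Replicate 4 of the parental line at 0 h had MAPK10 at 18.8 CPM, CCN2 at 29.0 and CCN1 at 145. Replicate 1 of the parental line at 96 h had VEZTP1 at 0.572 CPM and RPLP0P6 at 10.2. RNVU1-25 was at 2.84 CPM in replicate 2 of LB2 at 0 h, and RPLP0P6 at 12.5 in replicate 3.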

How the results depend on the processing

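Of the 79 genes, 25 were called in at least 20 of the 29 alternatives (25 planned, 4 added after seeing the data) and 7 in under 10. The count was 85 with RLE scaling, 169 with library size only, 164 without the low-count filter, 211 with DESeq2, 556 with voom and weights, 128 without libraries under 5000000 counts, 376 with the GC and length trend removed, and 20 with the compared groups alone, of which 18 were among the 79. Added fits gave 300 (compared groups alone without replicate 1 of LB2 at 0 h), 408 (trend removed without that replicate), 186 (trend removed without replicate 2 of the parental line at 96 h) and 168 (trend removed, compared groups alone). With the replicate block the count was 118, of which 78 were among the 79, and 514 with the block and the trend removed. Same-numbered wells correlated from -0.61 to 0.6, and 2 of 15 libraries correlated best with their own number. The deviations behind these correlations followed GC content, with rho from -0.64 to 0.7 by library. A pairing or batch shared by number could therefore be hidden, and the check cannot exclude it. Leaving out 1 library gave 2 to 72 genes for the difference, 336 to 820 for LB2, 1004 to 1748 for the parental line, 14 to 74 against LB1 and 7 to 1087 against LAC.

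For LB2 at 96 h against 0 h the count was 1248 with DESeq2, 2690 with voom, 1214 without shallow libraries, 1673 with the trend removed, 1941 with trend and block, and 54 with the compared groups alone. For the parental line it was 3345 with voom, 2613 without shallow libraries, 2942 with the trend removed and 3124 with trend and block. Against LB1 it was 48 without the filter, 81 with DESeq2, 517 with voom, 81 without shallow libraries, 152 with the trend removed, 179 with trend and block, and 8 with the compared groups alone. Against LAC it was 178 with RLE, 164 with library size only, 522 with DESeq2, 3241 with voom, 755 without shallow libraries, 460 with the trend removed, 594 with trend and block, and 0 with the compared groups alone in edgeR.

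The lamin differences changed sign. LMNB2 was 0.22 with voom, 0.24 without shallow libraries, 0.0834 with the trend removed, 0.0969 with trend and block, 0.22, 0.21, 0.0511 and 0.0773 in the 4 added fits in the order given above, and -0.38 to 0.16 with 1 library left out. LMNA was 0.18 with voom, 0.11 without shallow libraries, 0.14 and 0.0730 in the added fits without replicate 1 of LB2 at 0 h, and -0.65 to 0.0721 with 1 library left out, the highest being without that replicate. LMNB1 was 0.0017 with RLE, 0.12 with library size only, 0.0029 with DESeq2, 0.27 with voom, 0.22 without shallow libraries, 0.0784 with the trend removed, 0.0730 with trend and block, and 0.26, 0.34, 0.12 and 0.0603 in the added fits. It ran from -0.18 to 0.20 with 1 library left out, and was above 0 without replicate 1 of LB2 at 0 h (0.20) or replicate 1 (0.0173) or 2 (0.0028) of LB2 at 96 h. The causes were not tested. Depth limits genes of low CPM.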

Other observations

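At the SEMA5A locus on chromosome 5, 3 transcripts were called with a positive difference: SEMA5A itself, a transmembrane semaphorin (0.78, edgeR adjusted p = 0.0494), SEMA5A-AS1 on the other strand (2.44, edgeR adjusted p = 0.0249) and ENSG00000279698.1, inside the gene on its strand (edgeR adjusted p = 0.0132). SEMA5A rose in LB2 by 1.02 on the log2 scale, and SEMA5A-AS1 fell in parental cells by 1.70. ENSG00000279698.1 had 45 counts over the 4 parental libraries at 0 h and 3 at 96 h, and 8 over the 4 LB2 libraries at 0 h and 34 over the 3 at 96 h. Without replicate 1 of LB2 at 0 h, the difference of SEMA5A was 0.77 and missed the threshold (adjusted p = 0.0702, edgeR). SEMA5A was named after its value was seen. Both of the others lie within SEMA5A, and how reads of overlapping transcripts were assigned is not given in the sources used here.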
